A study of Malus domestica with 18 samples.

Results

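The response of apple fruit skin to bagging was measured at 150 days after flowering (DAF150), when the fruit was ripening, by comparing the 3 bagged libraries of that stage (T3) with its 3 unbagged libraries (CK3). These are 6 of the 18 RNA-seq libraries of the series. The genes described are the 1399 of 2856 deposited genes that reached 1 FPKM (a fragment count divided by gene length and by library size) in at least 3 of the 18 libraries. The cultivar was 'Golden Delicious' (Malus domestica). At DAF20 some fruits were closed in double-layered paper bags that keep out light (T) and the others stayed in the open (CK). Each group had 3 trees as replicates, and whether both groups came from the same trees is not given in the sources used here. Skin was collected at DAF30, DAF60 and DAF150, each sample pooling the peel of 3 fruits, so that the 6 groups of 3 libraries are CK1 and T1, CK2 and T2, and CK3 and T3. The question addressed by the study was which genes accompany russeting, the brown corky roughening that unbagged fruit of this cultivar develops and bagged fruit does not. A T3 fruit had thus spent its growth from DAF20 in the dark of the bag, and the bag changes light, humidity and contact with the air together, whose parts cannot be told apart here.

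The skin of a young apple is green. Its outer cells hold chloroplasts that fix carbon, and apple and its relatives move much of that carbon as sorbitol, a sugar alcohol made by sorbitol-6-phosphate dehydrogenase. The skin also deposits cutin and wax as a barrier on its surface, makes flavonoids in response to light, and, where the cuticle cracks, forms a cork layer whose walls hold suberin and lignin. Metals link to these processes because chloroplast enzymes carry iron, copper and zinc at their active sites.

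All 2856 deposited genes had passed the authors' thresholds for a difference between all T and all CK libraries, of which these 6 were a part (610 were higher and 2246 lower in T there). The counts and adjusted p-values below therefore hold among genes already selected for a bagging difference and say nothing of other genes, and the tests are not independent of that selection. Of the 1399 genes tested, 64 were higher and 217 lower in T3 by the strictest rule, an adjusted p up to 0.001 with a change of 2-fold or more (20.1% of the genes tested, 4.57% higher and 15.5% lower; limma on log2(FPKM+1)). None of these 281 genes overlapped between the groups, while 706 of all 1399 genes did not overlap (50.5%), 12.7% with all T3 libraries above and 37.8% with all below. At an adjusted p of at most 0.05, the rule used below for gene lists, 616 genes were called (44.0%), 176 of them higher (12.6%) and 440 lower (31.5%), and "rose" and "fell" are used below only for genes past it. The median log2 change over all genes tested was -0.37. Centring each library on its median moved that value to 0.10 and the split of the strictest calls from 64 higher and 217 lower to 111 and 103, and quantile normalization gave 120 and 95, so each list below is read against the median of all genes. Where a list below has 0 members higher or lower, it also had 0 at an unadjusted p under 0.05 in limma, except for 1 lower gene among the GDSL esterases. The strictest calls also rest on the spread shared by all 18 libraries, since a fit of the 6 DAF150 libraries alone called 2 genes higher and 8 lower by the strictest rule and 131 and 385 by the looser one. Without T3 replicate 2 the strictest calls were 66 higher and 140 lower.

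Libraries of the same group correlated at 0.925 to 0.932 in CK3 and 0.921 to 0.938 in T3 (Pearson's r across the 1399 genes), while a CK3 and a T3 library correlated at 0.668 to 0.783. The 3 samples of a group are separate samples by the labels, so p-values measure the spread between pools of fruit. CK3 replicate 1 stood high for heat shock, dehydrin and defence genes, CK3 replicate 3 stood low for genes of the skin barrier, and T3 replicate 1 stood high for secondary wall genes and between the groups for several metal genes. These values are given with each result, and their part in the results was not tested. The number of fragments behind each value is unknown, so no counting interval is given, and 298 of the tested genes lay under 1 FPKM in all 6 DAF150 libraries.

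**Figure D1:**
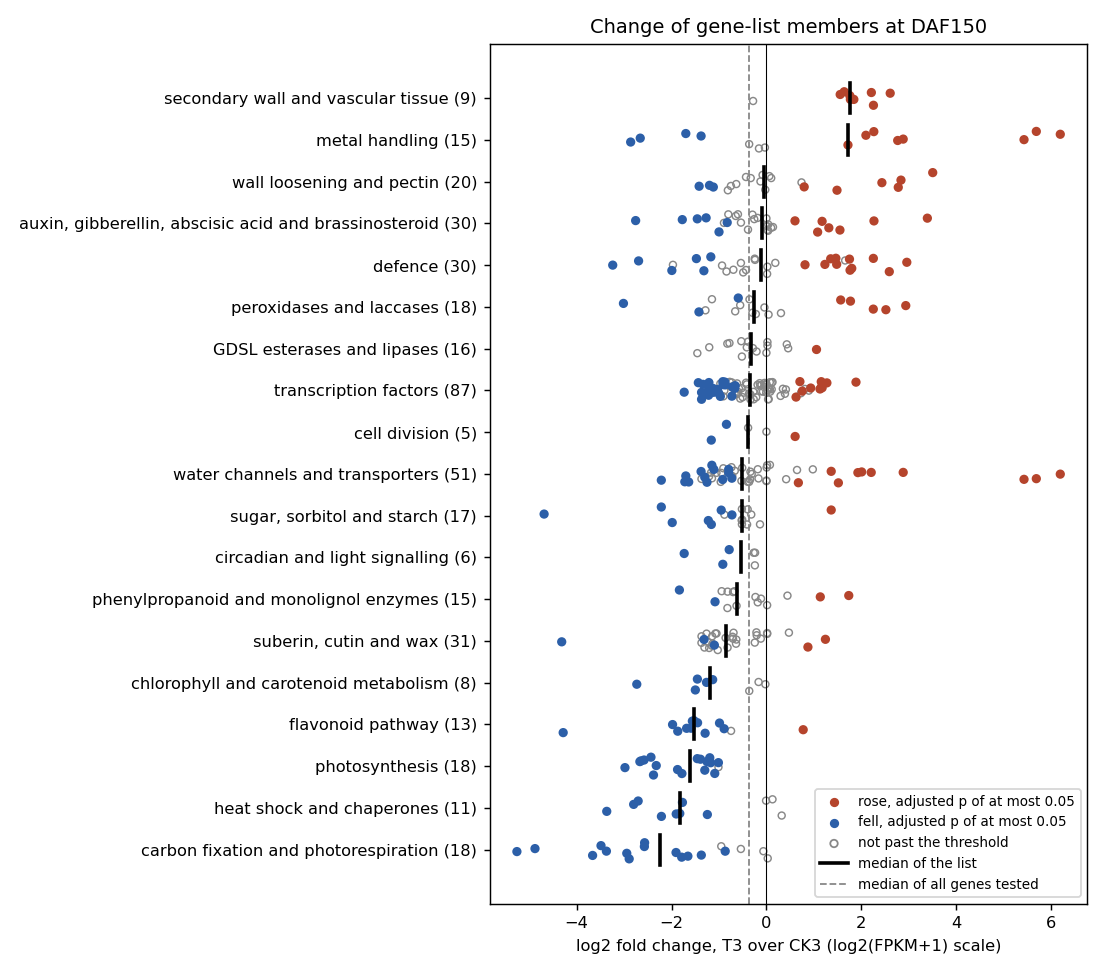
Log2 fold change at DAF150 (T3 over CK3, horizontal axis) of every tested member of 19 keyword lists, with the number of tested members in brackets. Filled points passed an adjusted p of 0.05, short black bars mark list medians and the dashed line marks the median of all genes, -0.37. Carbon fixation genes lie lowest (median -2.24) and secondary wall genes highest (median 1.77).

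Genes of photosynthesis and of carbon fixation fell in most tested cases. Of 18 tested genes of photosynthesis (19 in the table), 17 fell and 0 rose, with a median log2 change of -1.62. The 6 libraries of the 2 groups did not overlap for any of the 18, nor for 50.5% of all genes tested. Of 18 tested genes of carbon fixation and photorespiration (21 in the table), 14 fell and 0 rose, with a median of -2.24. With each library centred on its median, 16 and 12 members still fell. In such bulk samples, fewer chloroplast-bearing cells and less RNA of these genes per cell cannot be told apart.

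On the log2(FPKM+1) scale the largest fall of any tested gene was in a gene for the small subunit of Rubisco, the enzyme that fixes CO2. This gene, MD09G1252100 (chromosome 9, 32385414 to 32387041, GDDH13 v1.1 assembly), measured 70, 114 and 69.2 FPKM in the CK3 libraries and 1.86, 0.4 and 1.55 FPKM in the T3 libraries (log2 fold change -5.26 ± 0.57 (SE), adjusted p = 2.4e-06). A second small-subunit gene, MD17G1244400 (chromosome 17, 29290761 to 29292229), was among the most abundant transcripts of unbagged skin at 1845, 2635 and 2184 FPKM, and measured 120.1, 35.6 and 93.4 FPKM in T3 (log2 fold change -4.88 ± 0.45 (SE), adjusted p = 5.3e-07). Such gene copies are alike in sequence, and how the counting shared reads between them is not given in the sources used here. T3 replicate 2 was the lowest library for both copies. Rubisco activase, which keeps Rubisco working, fell in all its 3 tested copies. MD11G1095300, the most abundant of them, went from 1283, 1619.8 and 1205 FPKM to 152, 117 and 124 FPKM (log2 fold change -3.37 ± 0.33 (SE), adjusted p = 9.4e-07), with log2 changes of -3.49 for MD01G1137900 and -2.94 for MD03G1086300.

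Genes of the enzymes that follow Rubisco moved the same way. Chloroplast aldolase 1 fell in copy MD10G1063600 from 100.2, 132 and 97.6 FPKM to 6.77, 5 and 5.56 FPKM (log2 fold change -4.03 ± 0.43 (SE), adjusted p = 2.2e-06), and in the more abundant copy MD00G1040000 from 318, 392 and 334 FPKM to 54.5, 46.7 and 68.1 FPKM (log2 fold change -2.62 ± 0.34 (SE), adjusted p = 1.2e-05). Glyceraldehyde-3-phosphate dehydrogenase B, which spends the reducing power of the light reactions, measured 68.9, 51.6 and 42.1 FPKM in CK3 and 5.54, 2.25 and 2.67 FPKM in T3 for MD06G1006500 (log2 fold change -3.66 ± 0.40 (SE), adjusted p = 2.4e-06). Sedoheptulose-1,7-bisphosphatase (MD01G1146300) and the regulator CP12-1 (MD11G1314000) fell by 2.89 and 2.57 on the log2 scale. In each of these genes every T3 library lay below every CK3 library, as in 37.8% of all genes tested. The largest falls were named only among such genes.

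In the light reactions, the leaf form of ferredoxin-NADP reductase (MD15G1244500), which hands electrons on to make NADPH, measured 42, 51.6 and 30.4 FPKM in CK3 and 5.91, 4.07 and 6.9 FPKM in T3 (log2 fold change -2.67 ± 0.34 (SE), adjusted p = 8.4e-06). The thylakoid lumenal protein TL20.3 (MD06G1065500) fell from 11.6, 9.27 and 8.4 FPKM to 0.42, 0.25 and 0.39 FPKM (log2 fold change -2.98 ± 0.30 (SE), adjusted p = 1.0e-06), and the photosystem I antenna protein 5 (MD15G1083400) from 5.93, 7.53 and 5.68 FPKM to 0.53, 0.39 and 0.18 FPKM (log2 fold change -2.43 ± 0.28 (SE), adjusted p = 4.4e-06). Genes of the abundant antenna proteins changed less. Photosystem I antenna protein 3-1 (MD17G1123800) kept 74.9, 53.5 and 63.8 FPKM in T3 against 139, 202 and 194 FPKM in CK3 (log2 fold change -1.46). Chlorophyll a-b binding protein 151 (MD09G1122500), the most abundant gene of the list in T3, measured 366, 406 and 421 FPKM in CK3 and 302, 160.0 and 156 FPKM in T3 (log2 fold change -1.01 ± 0.32 (SE), adjusted p = 0.016), a call lost without T3 replicate 2 (log2 fold change -0.87, adjusted p = 0.075) or T3 replicate 3 (-0.85, adjusted p = 0.074). Among the members are models matched to chloroplast-encoded subunits, such as photosystem II protein D2 (MD09G1235700, 2.33, 5.14 and 3.04 FPKM in CK3 and 0, 0.16 and 0.45 FPKM in T3), for which reads of the chloroplast genome and of a nuclear copy cannot be told apart. The 50S ribosomal protein L1 of the chloroplast (MD07G1022000), the 1 tested gene of the ribosomal list, fell by 2.02 on the log2 scale.

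Genes of pigment enzymes followed in part. Of 8 tested genes of chlorophyll and carotenoid metabolism, 5 fell and 0 rose (median -1.20), a count that was 1 under quantile normalization. Prolycopene isomerase (MD08G1243700), a step in making carotenoids, measured 6.88, 8.87 and 5.45 FPKM in CK3 and 0.33, 0.09 and 0.18 FPKM in T3 (log2 fold change -2.73 ± 0.27 (SE), adjusted p = 1.0e-06). Zeaxanthin epoxidase (MD15G1284500), an enzyme of the xanthophyll cycle, and phytoene desaturase (MD04G1023800) fell by 1.26 and 1.50. The carotenoid cleavage dioxygenase MD07G1011500, which breaks carotenoids down, fell by 1.46.

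Other plastid genes were among the largest falls. The plastid 13S-lipoxygenase MD11G1023100 (chromosome 11, 2013402 to 2020986), an enzyme that oxidises fatty acids toward jasmonate and leaf volatiles, measured 20.8, 20 and 29 FPKM in CK3 and 0.24, 0.14 and 0.34 FPKM in T3 (log2 fold change -4.28 ± 0.32 (SE), adjusted p = 5.7e-08). A much more abundant gene of the same description, MD07G1004500, which overlaps another gene model, fell from 842, 493 and 391 FPKM to 151, 119 and 291 FPKM (log2 fold change -1.65 ± 0.40 (SE), adjusted p = 0.0027). The thioredoxin-like gene MD12G1128400 went from 22.6, 19.9 and 19.5 FPKM to 0.68, 0.51 and 0.46 FPKM (log2 fold change -3.81 ± 0.30 (SE), adjusted p = 1.1e-07). Plastid fatty acid desaturases MD01G1154100 and MD03G1205300, which put double bonds into membrane lipids, fell by 2.41 and 2.50. The chloroplast polyphenol oxidase MD10G1299300, one of the enzymes behind browning, measured 84.9, 20 and 12.9 FPKM in CK3, highest in replicate 1, and 2.52, 1.53 and 1.14 FPKM in T3 (log2 fold change -3.45 ± 0.65 (SE), adjusted p = 0.00035), with a log2 change of -2.68 without that library.

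**Figure D2:**
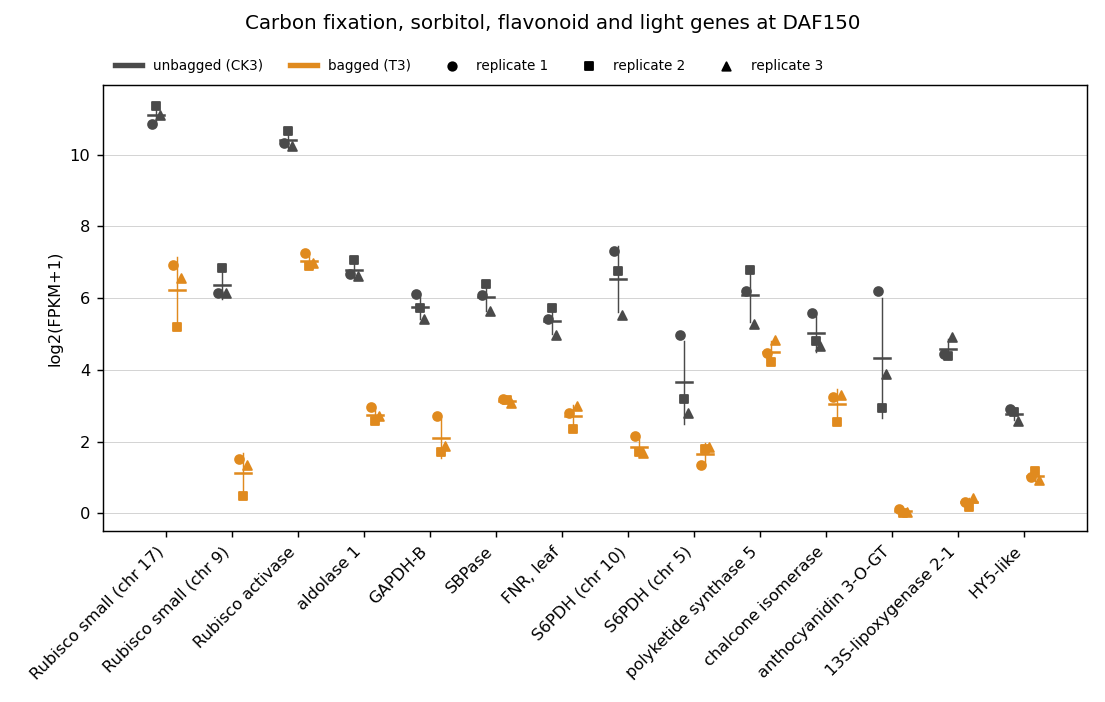
Level of 14 genes (log2(FPKM+1), vertical axis) in the 3 CK3 and 3 T3 libraries, with replicate number by symbol, group means as bars and SD as lines. Every T3 point lies below every CK3 point of the same gene, as in 37.8% of all genes tested. Rubisco small subunit on chromosome 17 falls from 1845 to 2635 FPKM to 35.6 to 120.1 FPKM.

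Transcripts of the enzyme that makes sorbitol fell in bagged skin, while sorbitol itself was not measured here. Sorbitol-6-phosphate dehydrogenase MD10G1062300 (chromosome 10, 8403348 to 8407079) measured 158, 108 and 45.2 FPKM in CK3 and 3.49, 2.25 and 2.21 FPKM in T3 (log2 fold change -4.68 ± 0.33 (SE), adjusted p = 4.1e-08). A second copy, MD05G1054800, fell from 30.1, 8.17 and 5.99 FPKM to 1.54, 2.5 and 2.62 FPKM (log2 fold change -1.99 ± 0.42 (SE), adjusted p = 0.0011). CK3 replicate 1 was the highest library for both, yet the lowest CK3 library still stood above every T3 library. Without it the log2 change of MD05G1054800 was -1.33. The polyol transporter MD10G1080000, which carries sorbitol across membranes, measured 148, 45.5 and 74.5 FPKM in CK3 and 10.4, 6.09 and 63.5 FPKM in T3 (log2 fold change -2.21 ± 0.63 (SE), adjusted p = 0.0081), with T3 replicate 3 inside the CK3 range, and lost its call without CK3 replicate 1 (log2 fold change -1.77, adjusted p = 0.052) or T3 replicate 2 (-1.57, adjusted p = 0.061), while without T3 replicate 3 it was -3.16, adjusted p = 0.00013. Over the 17 tested genes of sugar, sorbitol and starch, 7 fell and 1 rose (median -0.52), against 4 and 1 with each library centred on its median, 2 and 1 with quantile normalization, 3 and 1 without CK3 replicate 1, and 4 and 1 without T3 replicate 2 or T3 replicate 3. Isoamylase 3 (MD15G1376800), which debranches starch, fell by 1.22. The riser was the sugar transporter N3-like gene MD16G1125300, at 8.49, 3.36 and 4.75 FPKM in CK3 and 18.9, 10.7 and 16.4 FPKM in T3 (log2 fold change 1.36 ± 0.26 (SE), adjusted p = 0.0004).

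Genes of the flavonoid pathway mostly fell, with 11 of 13 tested members lower, 1 higher and a median of -1.52. The count was 8 lower with each library centred on its median, 6 with quantile normalization and 7 in the fit of the 6 DAF150 libraries alone. The gene copies described as chalcone synthase or polyketide synthase 5, which carry out the entry step, fell together. Polyketide synthase 5 (MD04G1003000) measured 72.7, 110.0 and 37.9 FPKM in CK3 and 21.1, 17.7 and 27.4 FPKM in T3 (log2 fold change -1.59 ± 0.36 (SE), adjusted p = 0.0015), and its neighbours MD04G1003300 and MD04G1003400, whose models overlap it, fell by 1.68 and 1.87. Chalcone synthase 1 on chromosome 13 (MD13G1285100) fell by 1.52 and lost its call without CK3 replicate 2 (log2 fold change -1.08, adjusted p = 0.054). Chalcone isomerase MD07G1186300, the next step, fell from 47.2, 26.7 and 24.3 FPKM to 8.54, 4.87 and 8.88 FPKM (log2 fold change -1.98 ± 0.30 (SE), adjusted p = 4.3e-05). At the end of the pathway the anthocyanidin 3-O-glucosyltransferase MD07G1306900 (chromosome 7, 36326910 to 36328991), which adds the sugar that stabilises anthocyanin pigments, measured 72.3, 6.68 and 13.7 FPKM in CK3 and 0.09, 0 and 0.03 FPKM in T3 (log2 fold change -4.28 ± 0.51 (SE), adjusted p = 5.1e-06), with -3.35 without CK3 replicate 1 and -4.98 without CK3 replicate 2. The anthocyanidin glucosyltransferase MD09G1142000 and anthocyanidin reductase MD06G1103900, which makes precursors of tannins, fell by 1.45 and 1.56 from levels under 4 FPKM. The member that rose, flavonol sulfotransferase MD06G1149400, went from 0.98, 0.96 and 1.06 FPKM to 3.23, 2.74 and 1.53 FPKM.

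Among light regulators, the HY5-like gene MD16G1132200 encodes a factor of a type that switches on light-induced genes, flavonoid genes among them. It measured 6.5, 6.13 and 5.02 FPKM in CK3 and 1.04, 1.26 and 0.9 FPKM in T3 (log2 fold change -1.73 ± 0.31 (SE), adjusted p = 0.00025). Of 6 tested genes of circadian and light signalling, 3 fell and 0 rose, and 1 fell under either scaling. The other 2 that fell, REVEILLE 8 (MD12G1126100), a clock component, and CONSTANS-like 2 (MD17G1087800), had log2 changes of -0.78 (adjusted p = 0.019) and -0.92 (adjusted p = 0.019). Each lost its call without CK3 replicate 1 (adjusted p = 0.075 and 0.11), T3 replicate 2 (0.067 and 0.055) or T3 replicate 3 (0.056 and 0.086), and REVEILLE 8 also without CK3 replicate 2 (0.072).

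On the log2(FPKM+1) scale the largest rise was in a zinc transporter, and 3 relatives of it rose too. The zinc transporter 1-like gene MD10G1227800 (chromosome 10, 32454796 to 32458405) was at 0.23, 0.21 and 0.47 FPKM in CK3 and 19.6, 323 and 127 FPKM in T3 (log2 fold change 6.19 ± 0.70 (SE), adjusted p = 3.4e-06), so that its T3 libraries differed among themselves by over 10-fold while all stood far above CK3. Its log2 change was 7.29 without T3 replicate 1 and 5.31 without T3 replicate 2. A second zinc transporter 1-like gene, MD05G1247200 (chromosome 5, 37833961 to 37836957), rose from 2.24, 2.14 and 3.62 FPKM to 61.4, 283 and 211 FPKM (log2 fold change 5.43 ± 0.49 (SE), adjusted p = 5.3e-07), with 6.09 without T3 replicate 1. Zinc transporter 8-like MD09G1140300 (chromosome 9, 10902562 to 10904224) rose from 9.41, 3.73 and 21.1 FPKM to 345, 599.6 and 716 FPKM (log2 fold change 5.69 ± 0.49 (SE), adjusted p = 3.4e-07), and so became one of the more abundant transcripts of the table in bagged skin. The chloroplast zinc transporter 4-like MD08G1061900 rose from 18.4, 14.1 and 18.9 FPKM to 76.2, 169.9 and 175 FPKM (log2 fold change 2.88 ± 0.33 (SE), adjusted p = 3.9e-06). In all 4 genes T3 replicate 1 was the lowest of the bagged libraries. Members of this family bring zinc and related metals into the cytosol, and in Arabidopsis several are switched on when zinc is short. No metal content was measured here.

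Genes of iron storage and chelation rose too. Ferritin, which stores iron in the chloroplast, rose in 3 copies of ferritin-4. MD12G1178200 measured 44.2, 27 and 25.4 FPKM in CK3 and 151, 260.2 and 264 FPKM in T3 (log2 fold change 2.77 ± 0.41 (SE), adjusted p = 4.3e-05), MD12G1178500 had a log2 change of 2.26 and MD04G1164500 one of 2.10. Nicotianamine synthase MD12G1205900 makes a chelator that carries iron, zinc and copper through the plant, and it rose from 18.9, 20.4 and 21.4 FPKM to 49.1, 95.4 and 69.4 FPKM (log2 fold change 1.72 ± 0.28 (SE), adjusted p = 9.4e-05). The oligopeptide transporter 3-like gene MD00G1163400, whose Arabidopsis counterpart moves iron and copper in the phloem, fell from 2.75, 4.05 and 2.83 FPKM to 0.46, 0.18 and 0.23 FPKM (log2 fold change -1.70 ± 0.45 (SE), adjusted p = 0.0049). Over the list, 8 of 15 tested members rose (23 in the table), 4 fell and the median was 1.72, and the 8 rises were called under both scalings and with any DAF150 library left out.

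The 4 genes of this list that fell were the oligopeptide transporter, a copper transporter and a pair of copper chaperones. The 2 genes described as copper chaperones for superoxide dismutase, which load copper into that enzyme, fell together. MD04G1072900 measured 85.8, 87.9 and 78.5 FPKM in CK3 and 20.9, 7.74 and 7.37 FPKM in T3 (log2 fold change -2.86 ± 0.31 (SE), adjusted p = 2.2e-06), and MD00G1069800 82.2, 79.2 and 75.1 FPKM and 19.1, 8.41 and 9.65 FPKM (log2 fold change -2.66 ± 0.27 (SE), adjusted p = 1.1e-06). Their client, the chloroplast Cu/Zn superoxide dismutase MD03G1128900 (chromosome 3, 12520733 to 12524775), fell from 263, 242 and 242 FPKM to 41.8, 13 and 12.1 FPKM (log2 fold change -3.65 ± 0.36 (SE), adjusted p = 1.0e-06). Over the same libraries the chloroplast Fe superoxide dismutase MD07G1240700 (chromosome 7, 31204105 to 31207040), which removes the same reactive oxygen species with iron in place of copper, rose from 0.78, 0.96 and 0.73 FPKM to 4.71, 22.8 and 19.3 FPKM (log2 fold change 2.94 ± 0.40 (SE), adjusted p = 1.9e-05), with 3.59 without T3 replicate 1. In all 4 genes the CK3 libraries lay close together and T3 replicate 1 was the bagged library nearest to them. In Arabidopsis the balance of these enzymes follows the copper supply. The copper transporter 2-like gene MD12G1155800 measured 11.5, 1.26 and 1.1 FPKM in CK3 and 0.87, 0.36 and 0.33 FPKM in T3 (log2 fold change -1.38 ± 0.46 (SE), adjusted p = 0.022), a difference that rests on CK3 replicate 1, without which the log2 fold change was -0.54, adjusted p = 0.083. It also lost its call without T3 replicate 2 (adjusted p = 0.064) or T3 replicate 3 (0.065).

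**Figure D3:**
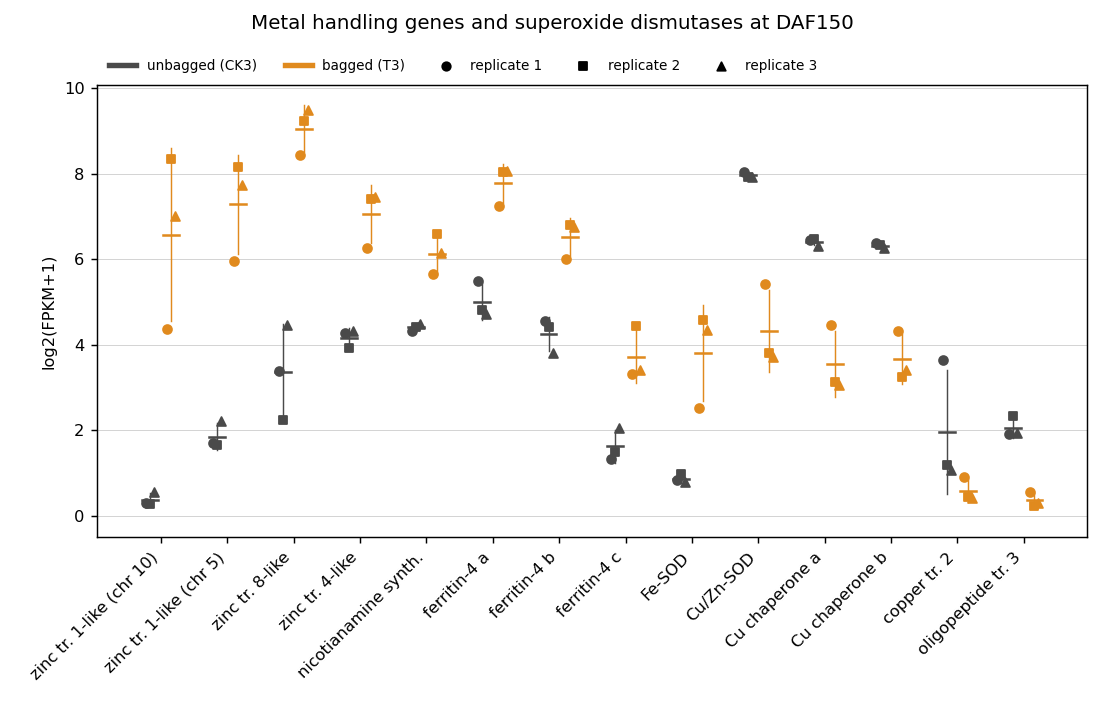
Level of 14 metal handling and superoxide dismutase genes (log2(FPKM+1), vertical axis) in the 3 CK3 and 3 T3 libraries, with replicate number by symbol, group means as bars and SD as lines. The zinc, nicotianamine and ferritin genes and Fe superoxide dismutase lie higher in T3, and Cu/Zn superoxide dismutase with its copper chaperones lower. T3 replicate 1 (circle) lies nearest to CK3 in the zinc transporters and in both dismutases.

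Further genes that rose in T3 had other functions. The methyltransferase MD06G1227300 measured 0.74, 0.36 and 0.73 FPKM in CK3 and 21, 179.9 and 170.2 FPKM in T3 (log2 fold change 5.78 ± 0.53 (SE), adjusted p = 5.3e-07), again lowest of T3 in replicate 1, without which the log2 change was 6.78. An undescribed gene model on chromosome 8, MD08G1062400 (chromosome 8, 4930391 to 4930891), chosen after its values were seen, was listed at 0 in all 3 CK3 libraries and at 10.5, 179 and 148 FPKM in T3, the same order of libraries. Its log2 fold change was 6.08 (adjusted p = 2.0e-06). With 0.1 FPKM added in place of 1 it was 9.36, above the 7.91 of zinc transporter 1-like MD10G1227800. Prolyl endopeptidase-like MD08G1005500, a peptide-cutting enzyme, rose from 9.3, 7.24 and 10.9 FPKM to 233, 631 and 405 FPKM (log2 fold change 5.29 ± 0.37 (SE), adjusted p = 4.1e-08). The SRC2-like gene MD02G1019900 rose from 0.93, 1.85 and 3.14 FPKM to 53.9, 68.8 and 56.8 FPKM (log2 fold change 4.42 ± 0.39 (SE), adjusted p = 3.6e-07), evenly in its 3 T3 libraries. Autophagy-related protein 18a-like MD12G1215700, part of the machinery that recycles cell contents, rose from 1.54, 0.66 and 1.08 FPKM to 5.99, 21.6 and 20.4 FPKM (log2 fold change 2.86 ± 0.35 (SE), adjusted p = 6.6e-06), and its model overlaps another. The vinorine synthase-like acyltransferase MD13G1109000 had a log2 change of 2.85, with T3 replicate 3 highest and a change of 2.13 without it. Potassium transporter 1 (MD11G1069200) rose with little spread, from 0.53, 0.61 and 0.69 FPKM to 6.69, 6.71 and 5.93 FPKM (log2 fold change 2.21 ± 0.17 (SE), adjusted p = 8.2e-08). Of 51 tested genes of water channels and transporters, the zinc transporters among them, 10 rose and 13 fell, against 13 and 6 with each library centred on its median and 10 and 22 without CK3 replicate 3.

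Among further wall genes, repetitive proline-rich cell wall protein 2 (MD02G1292200), whose model overlaps another, was among the most abundant transcripts of bagged skin at 1983, 1908 and 1372 FPKM, against 78.3, 311 and 215 FPKM in CK3 (log2 fold change 3.31 ± 0.39 (SE), adjusted p = 5.3e-06). Classical arabinogalactan protein 9 (MD05G1094200) rose from 25.9, 3.01 and 1.81 FPKM to 189, 47.3 and 47.4 FPKM (log2 fold change 3.50 ± 0.69 (SE), adjusted p = 0.00051), with replicate 1 highest in both groups. Its log2 change was 4.51 without CK3 replicate 1, 2.88 without CK3 replicate 3 and 2.85 without T3 replicate 1. Extensin-2-like genes MD04G1031300, MD04G1031400 and MD04G1031500, which overlap each other and may share reads, had log2 changes of 2.78, 2.43 and 2.83. Of 20 tested genes of wall loosening and pectin, 6 rose and 3 fell, with a median of -0.05, against 7 and 1 (median 0.41) with each library centred on its median, 6 and 1 (0.16) with quantile normalization, and 4 and 2 without CK3 replicate 1. Those that fell included endoglucanase CX (MD06G1120700), a cellulose-cutting enzyme, at -1.42, and the xyloglucan endotransglucosylase MD16G1014000, which cuts and rejoins wall chains, from 145, 179 and 144 FPKM to 53.3, 79.1 and 71.1 FPKM, a call lost under both scalings (adjusted p = 0.069 and 0.38).

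Genes of the secondary wall were higher in bagged skin at this stage. Of 9 tested members of the secondary wall and vascular list (17 in the table), 8 rose and 0 fell, with a median of 1.77. The 8 remained called under both scalings and with any DAF150 library left out. They are low genes, since a filter of 5 FPKM in at least 3 libraries left 1 member, which did not pass (log2 change -0.28). The groups did not overlap for 5 of the 9 members, nor for 50.5% of all genes tested. Most list members named here were chosen after their values were seen. Members of the list carry the names of Arabidopsis genes for cellulose of thickened walls. Cellulose synthase 7 (MD15G1150300) measured 3.05, 0.57 and 1.59 FPKM in CK3 and 17.4, 3.12 and 5.58 FPKM in T3 (log2 fold change 1.64 ± 0.43 (SE), adjusted p = 0.0049). Cellulose synthase 4 had a log2 change of 1.77 in MD00G1061100 and 1.76 in MD05G1189700. Fasciclin-like protein 11, a wall glycoprotein, rose in MD12G1120100 from 1.78, 0.81 and 0.04 FPKM to 22.8, 3.84 and 9.29 FPKM (log2 fold change 2.61 ± 0.42 (SE), adjusted p = 9.5e-05) and in MD04G1100000 from 2, 0.6 and 0.12 FPKM to 21.1, 3.2 and 5.3 FPKM (log2 fold change 2.25 ± 0.43 (SE), adjusted p = 0.00044). COBRA-like 4 (MD06G1203800), needed to lay down cellulose fibrils, measured 3.61, 0.43 and 0.18 FPKM in CK3 and 27.6, 3.43 and 5.09 FPKM in T3 (log2 fold change 2.21 ± 0.54 (SE), adjusted p = 0.0029).

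Several laccases, which couple lignin units in such walls, rose too, while laccase-7-like MD04G1142300 fell. Laccase-4-like MD04G1147700 (chromosome 4, 23574217 to 23577411) measured 3.53, 0.79 and 0.19 FPKM in CK3 and 47.4, 7.21 and 9.88 FPKM in T3 (log2 fold change 2.94 ± 0.52 (SE), adjusted p = 0.00023). Laccase-12-like MD07G1227900 rose from 0.8, 0.23 and 0.06 FPKM to 19.4, 2.42 and 5.33 FPKM (log2 fold change 2.52 ± 0.41 (SE), adjusted p = 9.2e-05), and MD01G1158900 and laccase-17-like MD04G1131500 had log2 changes of 2.25 and 1.56. Disease resistance response protein 206 (MD14G1116600), of the dirigent family that steers the coupling of phenolics, measured 0, 0.13 and 0.04 FPKM in CK3 and 6.13, 1.18 and 1.95 FPKM in T3 (log2 fold change 1.76 ± 0.29 (SE), adjusted p = 0.00012). This gene and laccase-12-like MD07G1227900 were under 1 FPKM in every CK3 library, and their T3 libraries alone met the filter for testing. NAC domain protein 43-like MD06G1121400, named after an Arabidopsis regulator of secondary walls, rose from 5.03, 5.32 and 1.86 FPKM to 29.1, 12.5 and 12.5 FPKM (log2 fold change 1.89 ± 0.37 (SE), adjusted p = 0.00046). Over the peroxidases and laccases 5 of 18 tested genes rose and 3 fell, against 5 and 6 without CK3 replicate 3. The fall of laccase-7-like MD04G1142300 was of the size of these rises, from 20.4, 31.9 and 8.89 FPKM to 2.03, 0.83 and 1.39 FPKM (log2 fold change -3.01 ± 0.39 (SE), adjusted p = 1.2e-05).

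T3 replicate 1 was the highest T3 library in each of these risers, and CK3 replicate 1 the highest CK3 library in all 8 members of the wall list that rose. Without T3 replicate 1 the log2 change of laccase-4-like MD04G1147700 was 2.15, of laccases MD07G1227900, MD01G1158900 and MD04G1131500 1.81, 1.57 and 0.95, of COBRA-like 4 MD06G1203800 1.39, of fasciclin-like MD04G1100000 1.55, and of cellulose synthases MD15G1150300, MD00G1061100 and MD05G1189700 1.03, 1.14 and 0.99. COBRA-like 4 was at 2.82 without CK3 replicate 1. The median of the list was 1.07 without T3 replicate 1, with 8 members still called, and in the fit of the 6 DAF150 libraries alone 2 of 9 passed. The keywords of the list also take in genes of conducting tissue, and the amount of such tissue in each sample was not measured. Its members summed to between 53.9 and 93.9 FPKM in the CK3 libraries and between 76.4 and 184.5 FPKM in the T3 libraries. COBRA-like 7 (MD13G1159600), the member that did not pass, held most of this sum in every library except T3 replicate 1, at 56.4, 91 and 52 FPKM in CK3 and 48.2, 56.6 and 53.9 FPKM in T3.

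**Figure D4:**
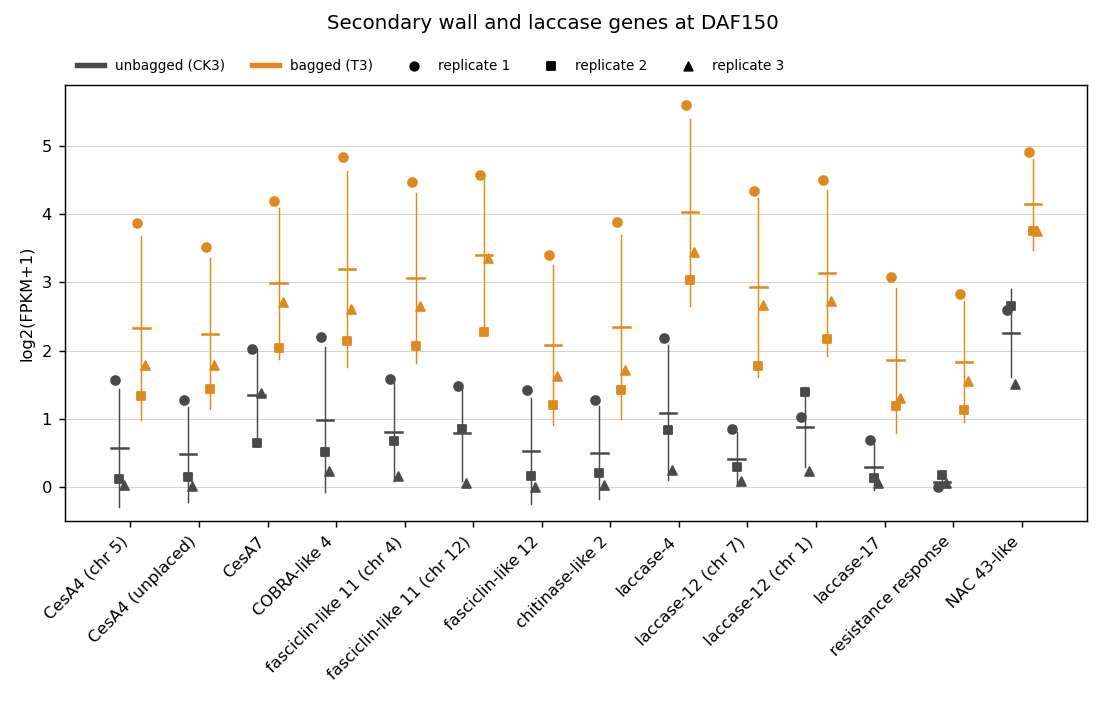
Level of 14 secondary wall and laccase genes (log2(FPKM+1), vertical axis) in the 3 CK3 and 3 T3 libraries, with replicate number by symbol, group means as bars and SD as lines. T3 replicate 1 (circle) is the highest library for every gene. For some genes CK3 replicate 1 reaches the level of T3 replicate 2.

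Transcripts of genes for the lipid barriers of the skin, which mark the tissue, were present in all 6 libraries. They summed to between 285 and 743 FPKM (CK3) and between 245 and 308 FPKM (T3). The barriers themselves were not measured here, and the study reported a thicker wax layer in T than in CK at every stage. Of 31 tested genes of suberin, cutin and wax (43 in the table), 2 rose, 3 fell and 26 did not pass, with a median of -0.86. The split turned with the scaling, to 3 higher and 1 lower with each library centred on its median (median -0.40) and with quantile normalization (-0.34). At DAF60 the same list had 3 members higher and 26 lower, where 71.4% of all genes tested were called, 9.51% higher and 61.9% lower. The spread within unbagged skin was large at DAF150, with CK3 replicate 2 high and CK3 replicate 3 low. Without CK3 replicate 3, 17 members fell and the median was -1.41, while 1 rose and 1 fell without CK3 replicate 2, with a median of -0.46, and likewise 1 and 1 without CK3 replicate 1. Without T3 replicate 1 or T3 replicate 2, 1 rose and 2 fell. The CYP86A1 gene MD03G1073600, which hydroxylates fatty acids for suberin, shows this: 7.81, 18.3 and 1.52 FPKM in CK3 and 1.86, 1.92 and 2.39 FPKM in T3 (log2 fold change -1.31 ± 0.62 (SE), adjusted p = 0.1). The feruloyl transferase MD09G1007600, which joins ferulate to suberin chains, was at 6.83, 14 and 2 FPKM and 1.78, 2 and 2.97 FPKM (log2 change -1.14, adjusted p = 0.11), and its paralogue MD17G1011500 at 4.1, 9.52 and 1.41 FPKM and 1.01, 1.45 and 2.11 FPKM (log2 change -1.03, adjusted p = 0.12).

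The list members that did pass were of mixed function. The non-specific lipid-transfer protein MD12G1187500 (chromosome 12, 26965545 to 26966281) fell from 189, 9.57 and 42.8 FPKM to 2.09, 0.83 and 0.98 FPKM (log2 fold change -4.31 ± 0.69 (SE), adjusted p = 8.6e-05), with CK3 replicate 1 highest and changes of -3.27 without CK3 replicate 1 and -5.35 without CK3 replicate 2. CYP86B1-like MD13G1004700, a hydroxylase of very long chains, measured 2.86, 5.97 and 0.63 FPKM in CK3 and 0.33, 0.42 and 0.51 FPKM in T3 (log2 fold change -1.31 ± 0.43 (SE), adjusted p = 0.019), and lost its call without CK3 replicate 1 (adjusted p = 0.057), CK3 replicate 2 (0.13) or T3 replicate 1 (0.052). CYP86A8 (MD01G1064900), a hydroxylase of cutin acids in Arabidopsis, rose from 0.47, 0.93 and 0.89 FPKM to 3.75, 4.39 and 1.78 FPKM (log2 fold change 1.24 ± 0.30 (SE), adjusted p = 0.0028).

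GDSL esterases, a family that includes cutin synthases, had 1 riser of 16 tested, MD15G1008900 (log2 change 1.04, adjusted p = 0.0023, overlapping another model), and 0 that fell, against 3 that fell without CK3 replicate 3. Some members stand in the study's tables under other names, as a ubiquitin ligase (UBR4) or an acyltransferase (PDA). These did not pass at this stage. Their log2 changes were -1.46 for MD06G1194000, -1.21 for MD11G1210200, -0.78 for MD11G1153800, -0.53 for MD02G1161000, -0.39 for MD00G1116600, 0.43 for MD11G1214800 and 0.46 for MD12G1252500. That of MD00G1116600 turned to 0.08 with each library centred on its median.

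Of 15 tested genes of the phenylpropanoid and monolignol route, 2 rose, 2 fell and 11 did not pass. Without CK3 replicate 3, 5 fell, and 1 fell under either scaling, where 3 rose, or without CK3 replicate 1, CK3 replicate 2, T3 replicate 2 or T3 replicate 3. The rises were in 2 abundant genes of this route. Hydroxycinnamoyltransferase MD17G1225100 (chromosome 17, 27370235 to 27376905) rose from 106, 96.4 and 168 FPKM to 478, 372 and 363 FPKM (log2 fold change 1.74 ± 0.27 (SE), adjusted p = 6.7e-05), and caffeoylshikimate esterase-like MD07G1174800 from 138, 152 and 296 FPKM to 435, 479.6 and 317 FPKM (log2 fold change 1.14 ± 0.31 (SE), adjusted p = 0.0067). Cinnamyl alcohol dehydrogenase 6 (MD08G1009200), which makes the lignin alcohols, fell from 18.4, 16.6 and 10.9 FPKM to 5.55, 3.28 and 2.2 FPKM (log2 fold change -1.83 ± 0.28 (SE), adjusted p = 5.5e-05). Phenylalanine ammonia-lyase MD04G1096200, the entry enzyme, was at 7.5, 25.5 and 4.42 FPKM and 5.84, 5.36 and 5.49 FPKM (log2 change -0.70, adjusted p = 0.38), and the hydroxycinnamoyltransferase copy MD17G1157600 at 2.2, 6.89 and 1.09 FPKM and 0.71, 0.83 and 1.37 FPKM (log2 change -0.94, adjusted p = 0.074). In both, CK3 replicate 2 was the highest library.

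The remaining genes that the study grouped with lignin or suberin differed in direction. Peroxidase 4-like MD03G1059200 rose from 13.4, 32.5 and 27.2 FPKM to 94.9, 103 and 53 FPKM (log2 fold change 1.77 ± 0.44 (SE), adjusted p = 0.0031), while peroxidase 3-like MD17G1092400 stayed under 1 FPKM in all 6 libraries (log2 change -0.22, adjusted p = 0.73). MD08G1058900, described in the table as a brassinosteroid-related acyltransferase, rose from 0.69, 1.83 and 2.5 FPKM to 6.87, 18.2 and 11.3 FPKM (log2 fold change 2.27 ± 0.40 (SE), adjusted p = 0.00021). The mannitol dehydrogenase-like gene MD01G1042500 had a log2 change of -1.005 (adjusted p = 0.033), a call lost without CK3 replicate 1 (0.13), CK3 replicate 2 (0.062), T3 replicate 1 (0.073) or T3 replicate 2 (0.11). MD01G1042800 and the uncharacterized MD03G1126700 had log2 changes of -0.60 and -0.58, with adjusted p = 0.1 and 0.26.

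Transcripts of stress proteins were lower in bagged skin, and CK3 replicate 1 carried the highest levels. Of 11 tested heat shock and chaperone genes (20 in the table), 8 fell and 0 rose (median -1.83). With each library centred on its median 7 fell and 1 rose, and with quantile normalization 6 fell and 0 rose (median -1.07). The count was 8 lower with any DAF150 library left out, although the median was -1.19 without CK3 replicate 1. The small heat shock protein MD08G1068000, which keeps other proteins from clumping, measured 156, 14.5 and 35.1 FPKM in CK3 and 9.14, 1.7 and 1.93 FPKM in T3 (log2 fold change -3.37 ± 0.64 (SE), adjusted p = 0.00039), with CK3 replicate 1 over 4 times the next library. Its log2 change was -2.45 without that library, -4.13 without CK3 replicate 2 and -3.98 without T3 replicate 1. MD08G1068300, a close relative with an overlapping model, showed the same order of libraries, with 144, 16 and 32.7 FPKM and 10.9, 2.56 and 4.88 FPKM (log2 fold change -2.80 ± 0.58 (SE), adjusted p = 0.00084), and changes of -1.93 and -3.48 without CK3 replicate 1 and without CK3 replicate 2. The chloroplast chaperone dnaJ 11 (MD15G1244700) fell without that spread, from 5.11, 4.91 and 5.48 FPKM to 0.84, 0.22 and 1 FPKM (log2 fold change -1.90 ± 0.30 (SE), adjusted p = 7.2e-05).

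Dehydrins, proteins that protect cells as they lose water, were chosen for description after their values were seen. Of 6 tested genes of this kind 5 fell and 1 rose. Dehydrin 6 (MD15G1253900, chromosome 15, 21424750 to 21425322) measured 2693, 1333 and 844 FPKM in CK3 and 270.0, 181 and 182 FPKM in T3 (log2 fold change -2.80 ± 0.40 (SE), adjusted p = 3.2e-05). The Rab21-like gene MD02G1140000 fell from 506, 159 and 118 FPKM to 31, 17.1 and 19.3 FPKM (log2 fold change -3.23 ± 0.61 (SE), adjusted p = 0.00039), and its neighbour on chromosome 2, MD02G1140200, from 104, 31.3 and 18 FPKM to 5.7, 2.38 and 2.79 FPKM (log2 fold change -3.18 ± 0.62 (SE), adjusted p = 0.00046). The ABA-inducible gene MD00G1115400, highest in CK3 replicate 2 instead, fell from 241, 678 and 399 FPKM to 49.4, 73.8 and 55.6 FPKM (log2 fold change -2.76 ± 0.52 (SE), adjusted p = 0.00039). These 4 genes did not overlap between the groups, nor did 50.5% of all genes tested. Without CK3 replicate 1 the log2 changes of MD02G1140000 and MD02G1140200 were -2.60 and -2.49. The member that rose, dehydrin DHN3-like MD02G1139700, measured 7.05, 12.5 and 2.59 FPKM in CK3 and 14.7, 23.2 and 23 FPKM in T3 (log2 fold change 1.52 ± 0.45 (SE), adjusted p = 0.012), a call lost without CK3 replicate 3 (1.00, adjusted p = 0.07).

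Defence genes moved in both directions, with 11 of 30 tested members (62 in the table) higher and 6 lower. Several of these calls rest on single libraries, since 8 were higher and 3 lower without CK3 replicate 1, 7 and 5 without CK3 replicate 3, 11 and 4 without T3 replicate 2, and 6 and 4 without T3 replicate 3. The apple allergens of the Mal d 1 family, small proteins of the pathogenesis-related class 10, rose in 6 of 7 tested genes. MD13G1161100 measured 9.52, 8.86 and 7.13 FPKM in CK3 and 75, 10.6 and 449.5 FPKM in T3 (log2 fold change 2.96 ± 0.90 (SE), adjusted p = 0.012), and its log2 fold change was 1.65, adjusted p = 0.085 without T3 replicate 3 and 4.29, adjusted p = 0.00021 without T3 replicate 2. Its neighbour MD13G1161200 measured 12.4, 11.9 and 10.2 FPKM and 73.1, 12.1 and 431 FPKM (log2 fold change 2.59 ± 0.90 (SE), adjusted p = 0.027), and lost its call without any of the DAF150 libraries except T3 replicate 2, with 1.32, adjusted p = 0.18 without T3 replicate 3 and 3.85, adjusted p = 0.00075 without T3 replicate 2. In both, T3 replicate 2 was near the level of CK3, the models overlap others, and members of the family are near copies. The allergen gene Mal d 1.03G (MD16G1160100) rose from 11.2, 6.14 and 7.37 FPKM to 33, 16.1 and 135 FPKM (log2 fold change 2.25 ± 0.55 (SE), adjusted p = 0.0028), a call that held with any library left out, at 1.42 without T3 replicate 3 and 2.92 without T3 replicate 2.

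On the falling side, the thaumatin-like gene MD04G1018400 measured 223, 5.86 and 6.67 FPKM in CK3 and 1.49, 0.17 and 3.82 FPKM in T3 (log2 fold change -3.24 ± 1.02 (SE), adjusted p = 0.015), and lost its call without CK3 replicate 1 (log2 fold change -1.59, adjusted p = 0.096) or T3 replicate 2 (-2.72, adjusted p = 0.072). It was -4.10 without CK3 replicate 2 and -4.02 without CK3 replicate 3. Genes with less spread were MLP-like protein 328 (MD16G1025800), which rose from 0.12, 0.06 and 0.09 FPKM to 2.54, 1.69 and 1.85 FPKM (log2 fold change 1.46 ± 0.13 (SE), adjusted p = 3.6e-07), and class V chitinase (MD02G1011100), an enzyme that cuts fungal walls, which fell from 1.24, 3.05 and 2.4 FPKM to 0.42, 0.31 and 0.07 FPKM (log2 fold change -1.32 ± 0.19 (SE), adjusted p = 3.6e-05).

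Among hormone genes 7 of 30 tested rose and 6 fell. The counts were 7 and 3 with each library centred on its median, 7 and 1 with quantile normalization, 4 and 4 in the fit of the 6 DAF150 libraries alone, and 2 and 5 without both replicates 1. The jasmonate-induced protein-like MD09G1163100 rose from 0.04, 0.12 and 0.5 FPKM to 13.9, 18.1 and 6.12 FPKM (log2 fold change 3.39 ± 0.41 (SE), adjusted p = 6.6e-06). Ent-copalyl diphosphate synthase MD11G1208700, the entry step of gibberellin synthesis, fell from 13.6, 28.3 and 4.08 FPKM to 0.19, 0.13 and 0.23 FPKM (log2 fold change -3.45 ± 0.38 (SE), adjusted p = 2.9e-06), and the flowering-promoting factor 1-like gene MD08G1131700 from 5.99, 40.8 and 12.4 FPKM to 0.82, 0.09 and 0 FPKM (log2 fold change -3.65 ± 0.42 (SE), adjusted p = 4.4e-06). The former was at -2.86 and -4.13 without CK3 replicate 2 and CK3 replicate 3 in turn, and the latter at -4.24 and -2.95 without CK3 replicate 1 and CK3 replicate 2 in turn. The TIFY 10A gene MD02G1096100, a repressor of jasmonate signalling, and abscisic acid 8'-hydroxylase 2 (MD03G1088100), which degrades abscisic acid, fell by 1.77 and 1.27. None of the 3 tested genes of ethylene synthesis passed, while 1 was lower in the fit of the 6 DAF150 libraries alone and 1 without CK3 replicate 3. The oxidase MD09G1114800 measured 3.9, 4.22 and 3.7 FPKM in CK3 and 5.6, 2.7 and 4.09 FPKM in T3 (log2 change 0.02, adjusted p = 1.0), the synthase MD15G1203500 had a log2 change of -0.72 (adjusted p = 0.12; -1.21, adjusted p = 0.0045 without CK3 replicate 3 and -0.08, adjusted p = 0.85 without CK3 replicate 1), and the synthase MD14G1111500 stayed under 0.5 FPKM throughout.

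Of 87 tested transcription factor genes (159 in the table), 10 rose and 22 fell, with a median of -0.34, near that of all genes. This split turned with the scaling, to 14 higher and 6 lower when each library was centred on its median and 13 and 7 with quantile normalization. The counts were 6 and 13 without CK3 replicate 1, 6 and 18 without T3 replicate 1, 5 and 11 without T3 replicate 2, and 8 and 14 without CK3 replicate 2. Besides the HY5-like gene, the lowest adjusted p-values were those of nuclear factor Y subunit A genes, MD12G1042100 at 3, 2.58 and 2.48 FPKM in CK3 and 0.37, 0.52 and 0.21 FPKM in T3 (log2 fold change -1.44 ± 0.18 (SE), adjusted p = 9.7e-06) and MD07G1011300 at 2.98, 2.74 and 2.34 FPKM and 0.47, 0.44 and 0.37 FPKM (log2 fold change -1.37 ± 0.26 (SE), adjusted p = 0.00041). Another member of that family, MD14G1041300, had a log2 change of -1.33. The 5 tested genes matched by cell division keywords included 1 that rose and 2 that fell. They summed to at least 4.39 FPKM in every CK3 library and at most 2.47 FPKM in every T3 library. Most of the sum in each CK3 library was 1 gene, ASHR2-like MD16G1130700, and the number of dividing cells was not measured. The histone methyltransferase ASHR2-like (MD16G1130700) fell from 2.73, 2.75 and 3.29 FPKM to 0.9, 0.63 and 0.73 FPKM (log2 fold change -1.16 ± 0.14 (SE), adjusted p = 5.1e-06) and cyclin-U1-1 (MD09G1104900) by 0.84. Histone H2A (MD11G1144600), the member that rose, passed at an adjusted p of 0.048 from at most 1.05 FPKM. It lost its call without any 1 of CK3 replicates 1 and 3 and T3 replicates 1 and 2.

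The stage differences asked which of these changes were particular to DAF150. The difference between the T/CK change at DAF150 and that at DAF60 was called in 270 genes at an adjusted p of at most 0.05 (19.3%), of which 198 had the larger T/CK ratio at DAF150 (14.2%) and 72 the smaller (5.15%). The median log2 change of all genes tested was -1.06 at DAF60 and -0.37 at DAF150, so a gene at both medians had a positive difference. With each library centred on its median 275 genes were called, and every difference printed below was lower in signed value. That of zinc transporter 1-like MD10G1227800 was then 5.32 in place of 6.01. Against DAF30 483 genes were called (34.5%). Both contrasts use the T3 and CK3 libraries of the DAF150 comparison, so the values are given side by side only. The zinc transporters grew with the stage. For MD10G1227800 the log2 change was 0.18 at DAF60 (adjusted p = 0.84) and 6.19 at DAF150, a difference of 6.01 (adjusted p = 0.00085). For MD05G1247200 and MD09G1140300 the differences were 4.35 and 3.62 (adjusted p = 0.0008 and 0.0025). The methyltransferase MD06G1227300 and SRC2-like MD02G1019900 differed by 4.87 and 4.56 (adjusted p = 0.00067 and 1.0e-04). Cu/Zn superoxide dismutase MD03G1128900 went from -0.91 to -3.65 (difference -2.75, adjusted p = 0.0023), and Fe superoxide dismutase MD07G1240700 from 0.05 to 2.94 (difference 2.90, adjusted p = 0.0031). Ferritin MD12G1178200, in contrast, was already higher at DAF60 by 2.09, and its difference of 0.68 did not pass (adjusted p = 0.41).

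Sorbitol-6-phosphate dehydrogenase MD10G1062300 had a log2 change of -0.34 at DAF60 (adjusted p = 0.37) against -4.68 at DAF150, and a difference of -4.35 ± 0.47 (SE, adjusted p = 3.6e-05). The differences of the anthocyanidin glucosyltransferase MD07G1306900, the heat shock protein MD08G1068000 and the lipid-transfer protein MD12G1187500 were -3.79, -3.58 and -3.46 (adjusted p = 0.0023, 0.012 and 0.022). Proline-rich protein 4 (MD05G1116400) was higher at DAF60 by 3.69 and had a log2 change of 0.33 at DAF150 (difference -3.35, adjusted p = 0.012). Of 18 photosynthesis members, 2 had a called difference from DAF60, both with the smaller T/CK ratio at DAF150. Of all genes tested 19.3% were called there, 5.15% with the smaller ratio. Against DAF30, 15 of the 18 had the smaller ratio at DAF150, as had 21.1% of all genes tested. The lipoxygenase MD11G1023100 had -4.01 at DAF60 and -4.28 at DAF150 (difference -0.27, adjusted p = 0.68).

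Other genes had lost by DAF150 the fall they showed at DAF60. The 3-ketoacyl-CoA synthase 19-like gene MD07G1187400, which lengthens fatty acids for waxes and suberin and whose model overlaps another, had a log2 change of -3.25 at DAF60 (adjusted p = 8.4e-06). At DAF150 it measured 36.5, 70 and 57.6 FPKM in CK3 and 53, 49.8 and 43.4 FPKM in T3 (log2 change -0.12; stage difference 3.13, adjusted p = 0.00078). The exporter ABCG11-like MD05G1042600 went from -3.09 to 0.01 (difference 3.11, adjusted p = 0.0023). With each library centred on its median the stage differences of MD07G1187400 and MD05G1042600 were 2.43 and 2.41. The glucan endo-1,3-beta-glucosidase genes MD14G1080100 and MD14G1079900 went from -3.10 and -3.39 to 1.63 and 1.17, where neither passed on its own (adjusted p = 0.11 and 0.21), and T3 replicate 1 was the highest library for both. Without it their log2 changes at DAF150 were 0.66 and 0.66, they were 1.08 and 0.79 without CK3 replicate 1, and 0.11 and 0.29 with both of these libraries left out. Both genes passed under either scaling. In the secondary wall list 0 of 9 members were called at DAF60 in either direction and 5 had a called stage difference, such as fasciclin-like protein 11 MD12G1120100 at 2.96 (adjusted p = 0.0037).

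**Figure D5:**
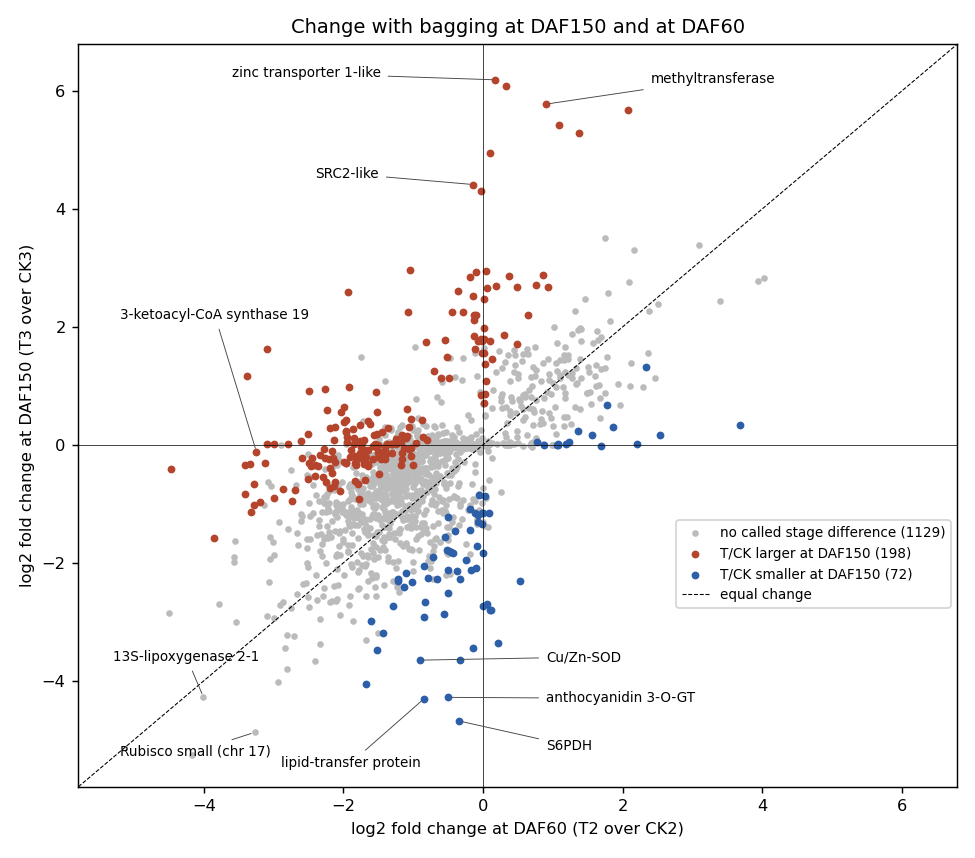
Log2 fold change with bagging of the 1399 tested genes at DAF60 (T2 over CK2, horizontal axis) and at DAF150 (T3 over CK3, vertical axis). Red and blue points are the 198 and 72 genes whose T/CK ratio was larger or smaller at DAF150 than at DAF60 (adjusted p of at most 0.05). Zinc transporter 1-like stands near 0 at DAF60 and above 6 at DAF150, and sorbitol-6-phosphate dehydrogenase (S6PDH) near 0 and below -4.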

How the data were processed

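The authors sequenced polyA RNA of skin pools and mapped 100 bp BGISEQ-500 reads to the GDDH13 v1.1 apple assembly with Bowtie2. The counting tool was not named in those sources. The deposited table holds FPKM per library to 2 decimals, with the authors' log2 ratio of all T over all CK and its q-value (a corrected p-value). These 2 columns were read only to learn how the table was filtered. FPKM is a share of each library, so a few abundant genes can move the rest.

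Here log2(FPKM+1) of the 1399 genes at 1 FPKM or more in at least 3 of 18 libraries was fitted in limma 3.58.1 (R 4.3.3, statmod 1.5.0) with 1 mean per group for the 6 groups, an intensity trend and robust moderation. Fold changes on this scale understate the change of low genes. Adjusted p-values are Benjamini-Hochberg over 1399 genes. Stage differences are interaction contrasts, T/CK at DAF150 minus T/CK at DAF60 or DAF30. Genes in the strictest class had an adjusted p of at most 0.001 and at least 2-fold change. The fit was tested on simulated data. Gene lists came from keywords in the deposited descriptions, which name the best match of each model, 1 gene can be in several lists, and no reference sequence was used.

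The members and lists were chosen with earlier results of these data known. Genes named were the 15 largest rises and 15 largest falls among described genes of the strictest class with non-overlapping libraries whose higher group averaged 5 FPKM or more, the 3 lowest adjusted p-values per list, the genes of the study's tables, and the 5 largest stage differences in each direction. Another 66 genes, among them the dehydrins, the Mal d 1 allergens, the second copies of many enzymes and most secondary wall members, were chosen after their values were seen. Replicate numbers of CK3 and T3 correlated in their deviations at 0.17, 0.12 and -0.08, so they were not treated as pairs. Alternatives changed the pseudocount (0.1 or 0.5), the filter (none, or 5 FPKM), the scaling (median centring or quantile), the moderation, the libraries fitted, and each DAF150 library in turn. The removal of CK3 replicate 1 and T3 replicate 1 together was added after seeing the data.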

Additional observations from a re-analysis of the deposited data

Results flagged for a closer look

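The genes with the largest called differences between the bagging effect at DAF150 and at DAF60, 5 in each direction, were set apart for a second look. All share the T3 and CK3 libraries with the DAF150 comparison, and no explanation of the differences was tested. The T/CK ratio was larger at DAF150 for zinc transporter 1-like MD10G1227800 (difference 6.01 in log2 change), the methyltransferase MD06G1227300 (4.87) and SRC2-like MD02G1019900 (4.56). It was also larger for the glucan endo-1,3-beta-glucosidases MD14G1080100 (4.73) and MD14G1079900 (4.55). Both glucosidases measured highest in T3 replicate 1, with 30.1, 3.04 and 3.16 FPKM and 7.28, 2.36 and 1.45 FPKM in the T3 libraries. Without T3 replicate 1 and CK3 replicate 1 together the difference of MD14G1080100 was 3.20 (adjusted p = 0.051). The ratio was smaller at DAF150 for sorbitol-6-phosphate dehydrogenase MD10G1062300 (-4.35), the anthocyanidin glucosyltransferase MD07G1306900 (-3.79) and the heat shock protein MD08G1068000 (-3.58). It was also smaller for the lipid-transfer protein MD12G1187500 (-3.46) and proline-rich protein 4 MD05G1116400 (-3.35, and -3.11 at an adjusted p of 0.064 without both replicates 1). For MD07G1306900, MD08G1068000 and MD12G1187500, CK3 replicate 1 was the highest unbagged library.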

How the results depend on the processing

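The strictest calls were 64 higher and 217 lower. They became 111 and 103 with median centring (167 of the 281 genes shared) and 120 and 95 with quantile normalization (154 shared), raising the share of higher calls from 22.8% to 51.9% and 55.8%, and 2 and 8 when only the 6 DAF150 libraries were fitted. Genes lower at an adjusted p of at most 0.05 went from 440 to 289 and 277 under these 2 scalings. With a filter of 5 FPKM, which tests fewer genes, 103 were higher and 277 lower, and stage differences were 142 against DAF60 and 318 against DAF30. The median log2 change of -0.37 was -0.74 and -0.47 with pseudocounts of 0.1 and 0.5, -0.0949 with no filter, -0.63 at 5 FPKM, 0.10 after median centring and -0.0606 after quantile normalization. Leaving out 1 library gave 47 to 66 higher and 140 to 227 lower strict calls, the lowest without T3 replicate 2, and 140 to 168 and 360 to 500 at an adjusted p of at most 0.05, 189 to 288 and 412 to 543 stage differences against DAF60 and DAF30, and a median of -0.44 to -0.25. Without CK3 replicate 1 and T3 replicate 1 together, an alternative chosen after seeing the data, 115 genes were lower and 147 differed from DAF60. With a replicate block 65 genes were higher and 214 lower (269 shared with the 281), and it changed the call of none of the 162 named genes. The cause of these shifts was not tested unless stated.

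Of the 136 named genes called, 14 lost the call without 1 library and 0 turned direction. Median centring ended 11 calls and quantile normalization 22. Among them, MD01G1042500, MD03G1088100, MD09G1122500, MD12G1126100, MD12G1155800, MD13G1004700, MD16G1014000 and MD17G1087800 missed the threshold under both, MD09G1104900 under centring, and MD02G1096100, MD04G1003000, MD04G1023800, MD07G1011500, MD10G1080000, MD13G1285100, MD15G1284500, MD15G1376800 and MD17G1123800 under quantile normalization. The 6-library fit ended 22, among them the cellulose synthases, COBRA-like 4 and laccase-17-like, the allergens on chromosome 13, thaumatin-like MD04G1018400 and caffeoylshikimate esterase MD07G1174800. Genes that changed direction had not passed. MD00G1116600 was at 0.0757 and 0.24 under median centring and quantile normalization and from -0.91 (without CK3 replicate 3) to 0.33 (without CK3 replicate 2). MD07G1187400 was at 0.34 and 0.50 under the same scalings and from -0.38 (without CK3 replicate 1) to 0.0818 (without CK3 replicate 2). MD13G1159600 was at 0.18 and 0.43 under these scalings, where the stage difference of ferritin MD12G1178200 was -0.0214 and -0.43. MD14G1111500 and MD17G1092400 were at 0.17 and 0.24 under median centring. MD05G1042600 went from -0.30 (without CK3 replicate 1) to 0.39 (without CK3 replicate 2) with 1 library left out, and was at -0.46 without both replicates 1. MD09G1114800 went from -0.19 (without T3 replicate 1) to 0.23 (without T3 replicate 2) and was at -0.19 without both replicates 1. Depth in fragments is unknown, and calls of genes near 1 FPKM rest on few reads.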
